A study of Mus musculus with 30 samples.

Results

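The SLC22 family encodes transporters that carry organic anions, organic cations and zwitterions across cell membranes, and 9 of its genes that serve the kidney were examined: *Slc22a2*, *Slc22a4*, *Slc22a5*, *Slc22a6*, *Slc22a7*, *Slc22a8*, *Slc22a12*, *Slc22a13* and *Slc22a19*. They were selected by symbol from the 54838 genes of the kidney count table, with their kidney values already known, so their kidney levels and differences are given as a description, without a test. All 9 passed the filter on low counts in kidney. In gastrocnemius, a hind limb muscle, 2 of the 9 passed it. RNA-seq was available for 30 libraries, 5 per group and tissue. All mice were male C57BL/6J wild types housed at thermoneutrality (30 to 32 °C). The CD group ate a chow diet and the WD group a western diet from Week 7 on, both with water by gavage, and the WD + CHP group ate the western diet and received cyclo(His-Pro) (CHP), a ring-shaped dipeptide, at 20 mg/kg by gavage 3 times per week. Mice were killed at Week 24, fasted for 3 h. The weeks are weeks of age, and CHP was given from Week 7 on. WD vs. CD asks what the diet changed, and WD + CHP vs. WD asks what the dipeptide changed on that diet. Both comparisons use the same 5 WD libraries.

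In the proximal tubule, organic anions are taken up from the blood through the basolateral transporters OAT1 and OAT3, which exchange them for a dicarboxylate, and are then passed into the urine by apical transporters and efflux pumps. Organic cations enter through OCT2 in the same cells. Other SLC22 members work in the opposite direction and recover urate, nicotinate, carnitine and ergothioneine from the filtrate. The group is known for drug secretion and for differences between the sexes in rodent kidney.

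Each kidney library held between 37189192 and 38211422 counts and each gastrocnemius library between 50319024 and 53282969. Of 15 proximal tubule markers, 15 passed the filter in kidney and 6 in gastrocnemius. The labels name frozen liver as the source tissue, whereas the study's methods name kidney and gastrocnemius. Markers of hepatocytes stood apart in 2 kidney libraries: albumin (*Alb*) was at 424.3 CPM (the usual library-size unit, here TMM-scaled) in WD replicate 5, at 81.4 CPM in CD replicate 1 and between 8.98 and 27.8 CPM in the other 13 libraries. *Apoa1*, another hepatocyte marker, was at 55.4 and 8.85 CPM in these 2 and between 0.595 and 3.55 CPM in the others. *Slc22a7* is also a liver gene, so its values are given with and without each of these libraries where they rest on it. The study does not state whether replicates of the 2 tissues came from the same mice. P-values measure the spread between libraries.

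*Slc22a7* and *Slc22a19* were the 2 members that differed most between CD and WD in kidney, both lower in WD. *Slc22a7* encodes OAT2, a carrier of small anions and nucleotides that is also abundant in liver, and lies at chr17:46432183-46438457 on the minus strand (GRCm38, GENCODE M21, as for all genes here). *Slc22a19* encodes OAT5, a rodent carrier of sulphated steroids in the last part of the proximal tubule, and lies at chr19:7673061-7711310 on the minus strand. It is the first of 8 SLC22 genes that stand side by side over 955.2 kb of chromosome 19, in the order *Slc22a19*, *Slc22a26*, *Slc22a27*, *Slc22a28*, *Slc22a29*, *Slc22a30*, *Slc22a8* and *Slc22a6*.

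Promoter sequences, 250 bases before to 50 after the gene's start, were found in RefSeq (GRCm38.p6) for 8 of the 9 members, with *Slc22a7* missing. Those of *Slc22a19* and *Slc22a26*, the neighbours that were both lower in WD, are shown with that of *Slc22a28*, a gene of the same cluster that was not. They lie at chr19:7711261-7711560, chr19:7802618-7802917 and chr19:8131933-8132232, all on the minus strand, and are printed 5′ to 3′ along the gene. Capitals mark matches to AGAACA, the half-site of steroid hormone receptors, or to TTCNNNGAA, the core of a STAT site, on either strand. The motifs were chosen after the expression values were seen.
Slc22a19: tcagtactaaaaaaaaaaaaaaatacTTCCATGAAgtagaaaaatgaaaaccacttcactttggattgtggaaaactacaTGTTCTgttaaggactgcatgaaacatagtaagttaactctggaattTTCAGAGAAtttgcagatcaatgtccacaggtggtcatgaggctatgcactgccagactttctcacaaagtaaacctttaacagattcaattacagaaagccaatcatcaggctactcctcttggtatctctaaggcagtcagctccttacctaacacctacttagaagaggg
Slc22a26: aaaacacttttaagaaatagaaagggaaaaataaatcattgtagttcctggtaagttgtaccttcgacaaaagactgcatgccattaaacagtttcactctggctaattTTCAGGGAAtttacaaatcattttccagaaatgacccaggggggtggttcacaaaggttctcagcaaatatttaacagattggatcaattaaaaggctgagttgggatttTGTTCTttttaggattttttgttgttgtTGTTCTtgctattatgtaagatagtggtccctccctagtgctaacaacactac
Slc22a28: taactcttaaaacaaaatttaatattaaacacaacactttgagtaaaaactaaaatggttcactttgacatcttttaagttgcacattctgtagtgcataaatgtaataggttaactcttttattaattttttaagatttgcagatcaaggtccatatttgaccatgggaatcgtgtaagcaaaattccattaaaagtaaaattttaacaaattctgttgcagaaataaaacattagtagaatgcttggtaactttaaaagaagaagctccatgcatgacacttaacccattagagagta

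The *Slc22a19* window held 1 match to AGAACA and 2 to TTCNNNGAA, that of *Slc22a26* held 2 and 1, and that of *Slc22a28* held 0 and 0. No printed match overlaps one to the other motif. AGAACA occurs in 19.0% and TTCNNNGAA in 8.3% of the 32851 RefSeq promoters of this length. Among the 8 members with a promoter in the table, 1, *Slc22a19*, held either of these motifs. Of the other SLC22 genes besides *Slc22a26*, *Slc22a18* and *Slc22a22* held AGAACA and *Slc22a15* and *Slc22a16* held TTCNNNGAA. *Slc22a18*, *Slc22a22* and *Slc22a15* gave log2 fold changes of -0.08, 0.04 and 0.01 in kidney WD vs. CD and did not pass the test (edgeR, adjusted p = 0.14, 0.69 and 0.97), and *Slc22a16* did not pass the filter on low counts. In a global alignment, the windows of *Slc22a19* and *Slc22a26* were identical in 53.9% of aligned columns and those of *Slc22a19* and *Slc22a28* in 63.5%. These matches are a description of the letters in the windows.

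In kidney, *Slc22a7* stood at 173.6, 179.6, 225.8, 177.8 and 180.3 CPM in the CD libraries. It stood at 30.1, 23.0, 39.8, 27.0 and 42.7 CPM in WD and at 122.4, 114.5, 106.4, 97.7 and 16.2 CPM in WD + CHP, each in the order of replicates 1 to 5. Every WD library lay below every CD library, and 4 of the 5 WD + CHP libraries lay above every WD library and below every CD library. The exception was WD + CHP replicate 5, which lay below every WD library. Group means were 187.4 ± 21.6 CPM in CD, 32.5 ± 8.42 CPM in WD and 91.5 ± 43.0 CPM in WD + CHP (SD, n = 5 each). The log2 fold change was -2.53 (SE 0.35) in WD vs. CD and 1.49 (SE 0.34) in WD + CHP vs. WD. The mean was 5.76 times as high in CD as in WD.

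These *Slc22a7* differences were followed through the libraries that stand apart. Without CD replicate 1, the log2 fold change in WD vs. CD was -2.55 (SE 0.37). Without WD replicate 5, the log2 fold change was -2.64 (SE 0.38) in WD vs. CD and 1.61 (SE 0.37) in WD + CHP vs. WD. Without WD + CHP replicate 5, WD + CHP vs. WD gave 1.76 (SE 0.14) and a mean of 110.3 ± 10.6 CPM (SD, n = 4), which is 58.8% of the CD mean against 48.8% with all 5 libraries. That library was left out after its *Slc22a7* value was seen. Over the 10 fits that leave out 1 library, WD vs. CD gave -2.64 to -2.42. In WD + CHP vs. WD such fits gave 1.37, without WD + CHP replicate 1, to 1.76, and 10 other alternative fits gave 1.24 to 1.54.

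For *Slc22a19*, CD libraries stood at 105.3, 97.4, 125.7, 125.8 and 120.5 CPM. WD libraries stood at 45.4, 42.4, 42.8, 36.98 and 54.2 CPM and WD + CHP libraries at 69.9, 75.0, 55.8, 52.5 and 30.3 CPM. CD and WD did not overlap, whereas 3 of 5 WD + CHP libraries were above every WD library and replicate 5 was again below all of them. Means were 115.0 ± 12.9, 44.3 ± 6.30 and 56.7 ± 17.5 CPM in CD, WD and WD + CHP (SD, n = 5). The log2 fold change was -1.37 (SE 0.17) in WD vs. CD and 0.35 (SE 0.17) in WD + CHP vs. WD, and the latter was 0.51 (SE 0.12) without WD + CHP replicate 5 and 0.24 (SE 0.17) without WD + CHP replicate 2, the lowest and highest libraries of that group. The mean was 2.59 times as high in CD as in WD.

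Of the 9 members, 2 (*Slc22a7* and *Slc22a19*) had an adjusted p under 0.05 in WD vs. CD in the fit over all genes, beside 9.65% of the 17120 genes tested, and both were lower in WD. Nothing is read from that count, since the members were chosen with these values known. The same holds for the lack of overlap between CD and WD in these 2, for which no share over all genes is given. In WD + CHP vs. WD, 0 of 9 passed, beside 0.105% of all genes (edgeR). In that comparison 3 of 9 had an unadjusted p under 0.05 in edgeR, DESeq2 called 1 (*Slc22a7*) and limma-voom 0. Over all 17120 genes tested, 1958 had an unadjusted p under 0.05 in edgeR, DESeq2 called 168 and limma-voom 25. The median log2 fold change of the members was -0.09 in WD vs. CD and 0.08 in WD + CHP vs. WD, beside 0.00 and -0.01 over all genes tested.

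**Figure D1:**
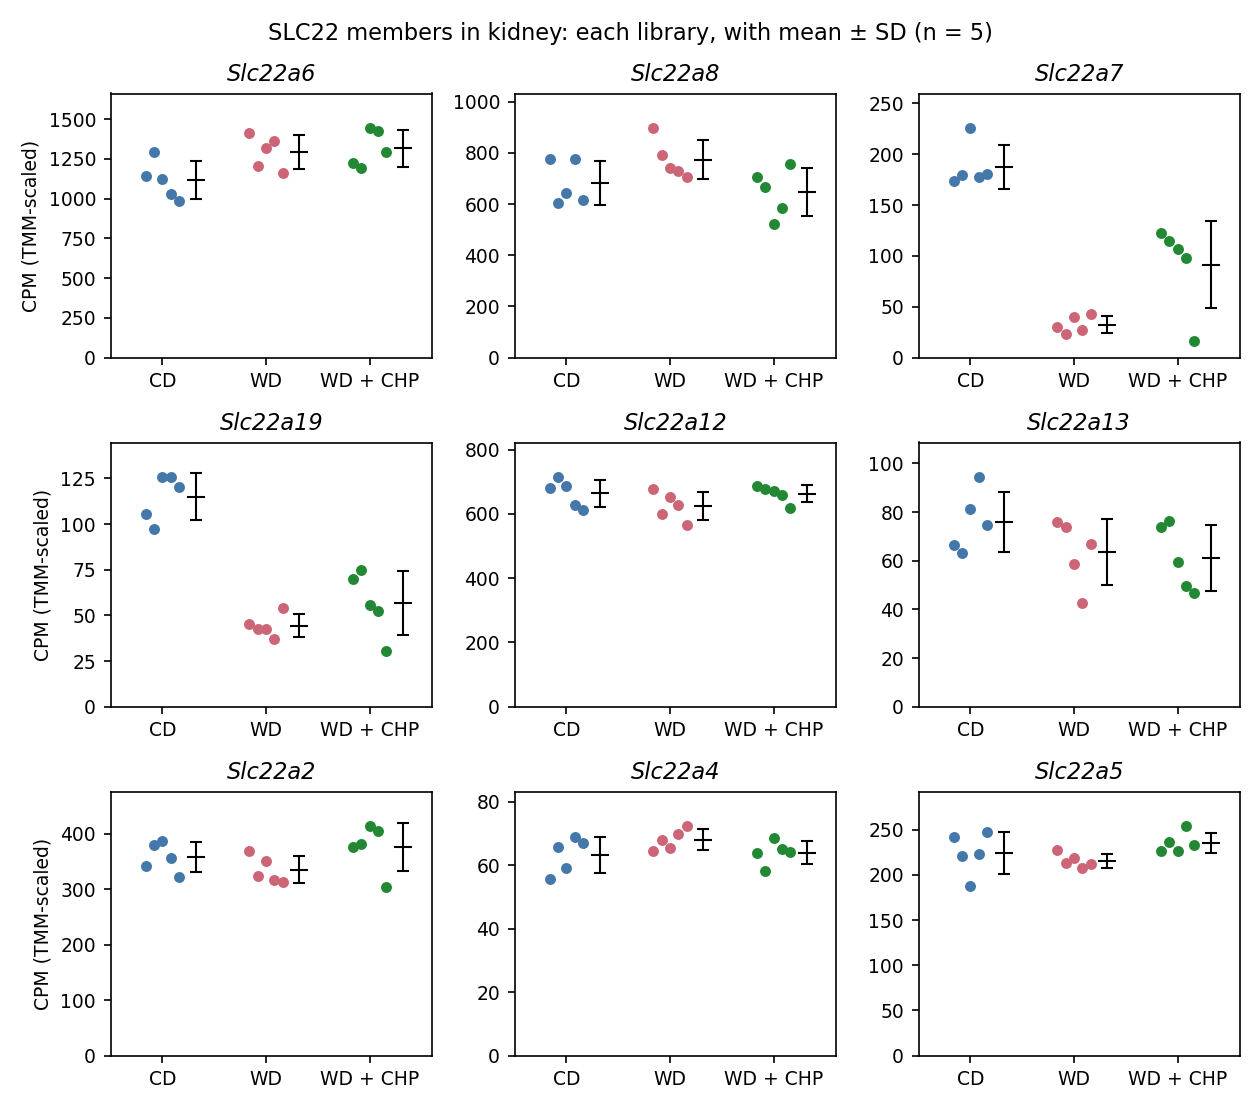
Kidney CPM (TMM-scaled, linear axis from 0) of the 9 members in each library of CD, WD and WD + CHP (coloured points, replicates 1 to 5 from left to right), with mean ± SD (n = 5) in black. *Slc22a7* and *Slc22a19* are the panels in which CD and WD do not overlap, and WD + CHP replicate 5 is the lowest of 15 libraries in both. The share of all genes with no such overlap is not given, so this is a description.

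*Slc22a6* and *Slc22a8* encode OAT1 and OAT3, the basolateral anion uptake carriers, and neighbour each other on the plus strand at chr19:8618039-8628299 and chr19:8591254-8611835. *Slc22a6* ranged from 986 to 1295 CPM in CD, from 1163 to 1411 CPM in WD and from 1190 to 1444 CPM in WD + CHP. Its groups overlapped, with log2 fold changes of 0.21 (SE 0.08) in WD vs. CD and 0.03 (SE 0.08) in WD + CHP vs. WD. Without CD replicate 2, the highest CD library, WD vs. CD gave 0.28 (SE 0.07). *Slc22a8* ranged from 606 to 777 CPM in CD, from 704 to 898 CPM in WD and from 521 to 757 CPM in WD + CHP. Its log2 fold changes were 0.18 (SE 0.10) and -0.26 (SE 0.10), so that its mean was highest in WD, with overlapping ranges.

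The urate and nicotinate carriers showed overlapping groups. *Slc22a12* encodes URAT1, the apical urate reabsorber, at chr19:6535845-6543032 on the minus strand, and ranged from 614 to 715 CPM in CD, from 565 to 677 CPM in WD and from 618 to 687 CPM in WD + CHP. Its log2 fold changes were -0.09 (SE 0.05) and 0.08 (SE 0.05). *Slc22a13* encodes OAT10, a carrier of nicotinate and urate, at chr9:119192974-119209098 on the minus strand. It ranged from 63.3 to 94.4, from 42.8 to 75.8 and from 46.8 to 76.3 CPM in CD, WD and WD + CHP. Its log2 fold changes were -0.26 (SE 0.16) and -0.05 (SE 0.16), and no member but *Slc22a7* and *Slc22a19* had a wider SE. Exons of *Slc22a12* overlap those of *Nrxn2* on the other strand over 682 bases, but *Nrxn2* had at most 24 counts in any kidney library.

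The cation and carnitine carriers also overlapped between groups. *Slc22a2* encodes OCT2, which takes up creatinine and cationic drugs, and lies at chr17:12584132-12628488 on the plus strand. It ranged from 322 to 387 CPM in CD, from 313 to 369 CPM in WD and from 304 to 414 CPM in WD + CHP, where 4 of 5 libraries lay above every WD library and replicate 5 was below all of them. Its log2 fold changes were -0.10 (SE 0.08) and 0.17 (SE 0.08). *Slc22a4* encodes OCTN1, the ergothioneine carrier, at chr11:53983123-54028090, and stayed between 55.5 and 72.4 CPM in all 15 libraries, with log2 fold changes of 0.10 (SE 0.06) and -0.09 (SE 0.06). *Slc22a5* encodes OCTN2, the high-affinity carnitine carrier, at chr11:53864542-53891660, and stayed between 187.7 and 254.0 CPM, with -0.06 (SE 0.06) and 0.13 (SE 0.06). Both lie on the minus strand.

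Some members share transcript sequence with relatives, and how reads that fit several genes were counted is not given in the sources used here. Of the distinct 50-base windows in the transcripts of *Slc22a5*, 26.2% also occur in another SLC22 gene, mostly *Slc22a21*, the neighbouring carnitine carrier. For *Slc22a2* the share was 4.15%, and for *Slc22a19* it was 0.985%, mostly with *Slc22a27*. It was 0.68% for *Slc22a4* and 0 for *Slc22a6*, *Slc22a7*, *Slc22a8*, *Slc22a12* and *Slc22a13*. The kidney values of *Slc22a5* are therefore the least certain in this respect.

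Levels of different genes were compared per length, as CPM per kb of a gene's merged exons. In CD the order was *Slc22a12* (293.8 CPM per kb), *Slc22a6* (279.8), *Slc22a8* (174.8), *Slc22a2* (144.0), *Slc22a7* (89.2), *Slc22a5* (73.0), *Slc22a13* (38.0), *Slc22a4* (24.8) and *Slc22a19* (21.2 CPM per kb). The ranges of the 5 libraries overlapped for 3 neighbouring pairs in this order, *Slc22a12* with *Slc22a6*, *Slc22a8* with *Slc22a2* and *Slc22a4* with *Slc22a19*, and for no other. In WD the level of *Slc22a7* was 15.5 CPM per kb, at place 8 of 9 below *Slc22a4* (26.6 CPM per kb), with no overlap. In WD + CHP it was 43.5 CPM per kb, at place 6, with its range overlapping that of *Slc22a13*. *Slc22a6* stood first in WD and WD + CHP (324.1 and 330.3 CPM per kb), with ranges that overlapped those of *Slc22a12*. With the longest transcript as the length, *Slc22a19* in CD was at 32.2 CPM per kb and stood above *Slc22a4*, and the other 7 kept their places. The sum over the 9 members was 3486 ± 155 CPM in CD, 3448 ± 225 CPM in WD and 3510 ± 92.0 CPM in WD + CHP (SD, n = 5).

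**Figure D2:**
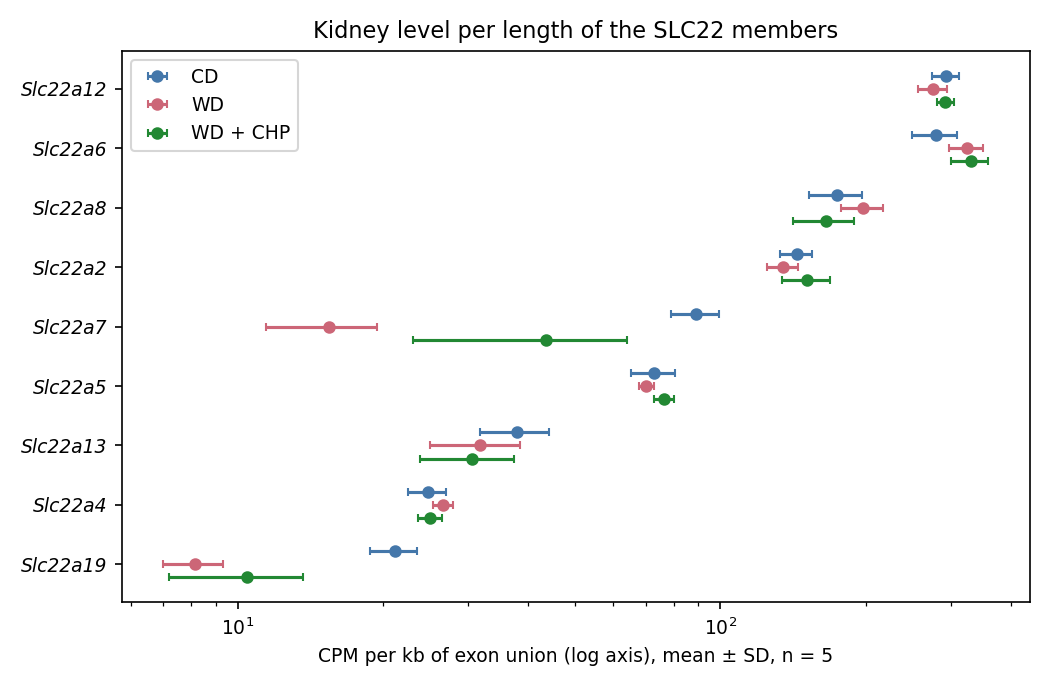
Kidney level of the 9 members in CPM per kb of merged exons on a log axis (mean ± SD, n = 5) for CD, WD and WD + CHP, ordered by the CD mean. *Slc22a7* is at place 5 in CD, at 89.2 CPM per kb, and lies at 15.5 CPM per kb in WD and at 43.5 CPM per kb in WD + CHP.

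Of 16 other SLC22 genes, 14 passed the filter in kidney. In WD vs. CD, 2 of the 14 rose and 2 fell (edgeR, adjusted p under 0.05, beside 9.65% of all genes), and their median log2 fold change was 0.01. *Slc22a26*, the rodent anion transporter gene next to *Slc22a19* at chr19:7781041-7802667, stood at 63.7, 46.3, 58.5, 69.1 and 74.0 CPM in CD, at 15.6, 15.9, 14.3, 13.7 and 23.1 CPM in WD and at 28.2, 35.7, 21.2, 16.3 and 11.9 CPM in WD + CHP. CD and WD did not overlap, and WD + CHP replicate 5 was the lowest of all. *Slc22a26* fell by 1.92 on the log2 scale in WD vs. CD (SE 0.23, adjusted p = 0.00016), and its log2 fold change in WD + CHP vs. WD was 0.46 (SE 0.23, adjusted p = 0.48). No 50-base window of its transcripts occurs in another SLC22 gene.

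The other genes of the chromosome 19 cluster did not pass the test in WD vs. CD. *Slc22a28* gave a log2 fold change of 0.01 (SE 0.09, adjusted p = 0.96), *Slc22a30* of 0.15 (SE 0.09, adjusted p = 0.32), *Slc22a27* of -0.56 (SE 0.30, adjusted p = 0.27) and *Slc22a29* of 0.22 (SE 0.24, adjusted p = 0.62). *Slc22a27* and *Slc22a29* were low, with group means between 0.202 and 3.28 CPM. *Slc22a30* and *Slc22a28* stood at 194.6 ± 12.8 and 129.1 ± 8.35 CPM in WD (SD, n = 5). The 2 ends of the cluster therefore differed in WD vs. CD, with *Slc22a19* and *Slc22a26* lower and the remaining genes, *Slc22a6* and *Slc22a8* included, between -0.56 and 0.22 on the log2 scale. That difference between genes was not tested.

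*Slc22a3*, which encodes the cation carrier OCT3 and lies near *Slc22a2*, rose in WD vs. CD by 1.18 on the log2 scale (SE 0.24, adjusted p = 0.0063), from 0.509 to 1.11 CPM in CD to 1.21 to 1.93 CPM in WD, a low level throughout. *Slc22a23*, an orphan member, rose by 0.26 (SE 0.08, adjusted p = 0.036), with the adjusted p between 0.0039 and 0.088 over the 10 fits that leave out 1 library, and above 0.05 in 6 of them. These 6 were the fits that dropped replicate 2, 3, 4 or 5 of CD, or replicate 1 or 2 of WD. The most abundant other SLC22 gene per length was *Slc22a18*, at 278.2 CPM per kb in CD.

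In WD + CHP vs. WD, 0 of the 14 other SLC22 genes passed the test (edgeR), 4 had an unadjusted p under 0.05, and DESeq2 called 1 and limma-voom 0. Beside these stand 18 genes called by edgeR, 1958 at an unadjusted p under 0.05, 168 in DESeq2 and 25 in limma-voom, of 17120 tested. The gene called by DESeq2 was *Slc22a29*, with a log2 fold change of -0.99 (SE 0.26) in edgeR and an adjusted p of 0.14, against 0.014 in DESeq2. *Slc22a3* gave -0.60 (SE 0.23, adjusted p = 0.33), with WD + CHP libraries between 0.757 and 1.84 CPM.

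**Figure D3:**
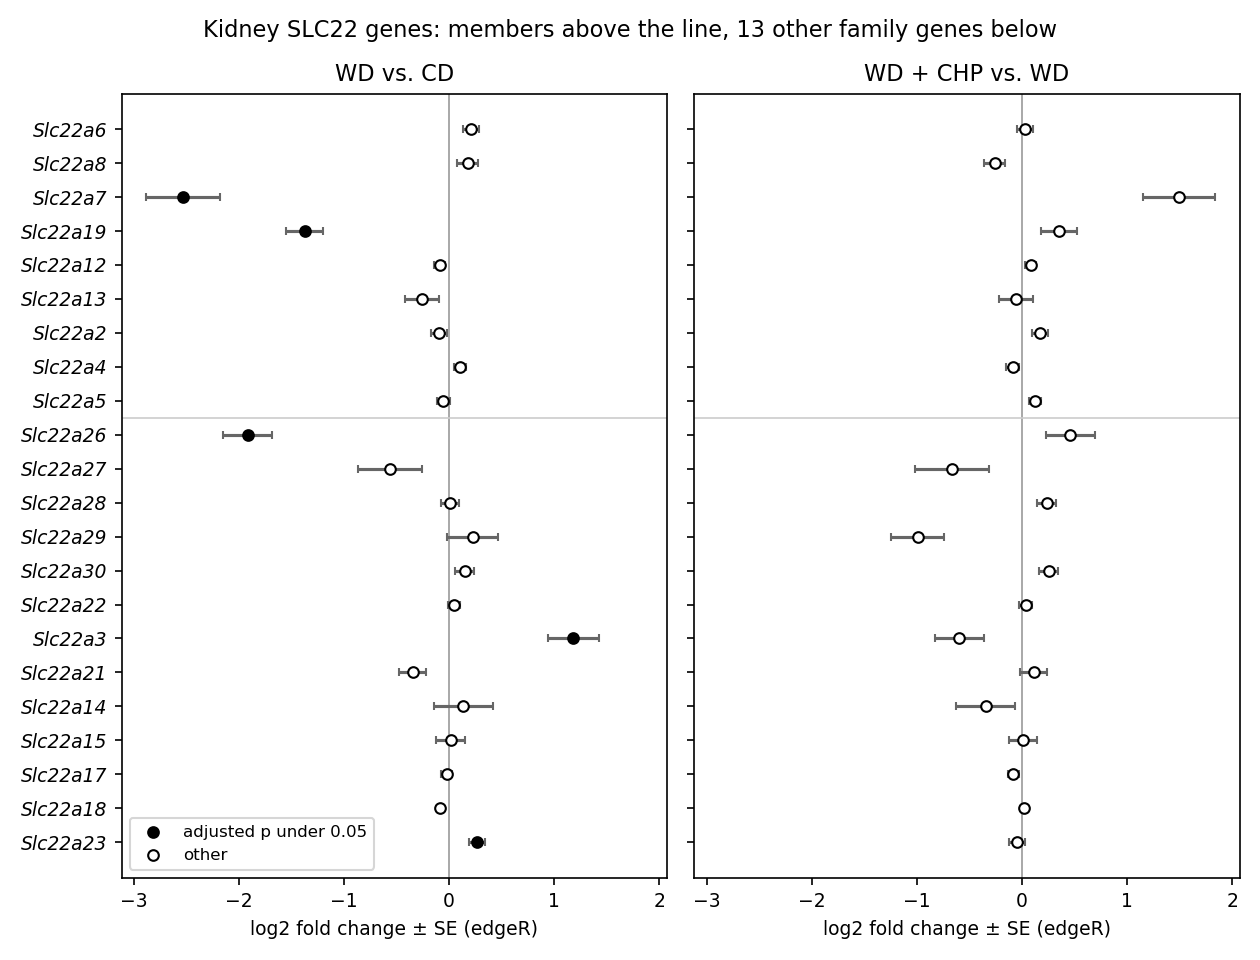
Log2 fold change ± SE (edgeR) of the 9 members (above the grey line) and 13 of the 14 other SLC22 genes that passed the filter (below it) in kidney, for WD vs. CD on the left and WD + CHP vs. WD on the right, on 1 common axis. Filled points have an adjusted p under 0.05, which on the left are *Slc22a7*, *Slc22a19*, *Slc22a26*, *Slc22a3* and *Slc22a23*, and on the right none.

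Among the 15 kidney libraries, *Slc22a7* and *Slc22a19* had similar profiles, with a Pearson r of 0.93 between their log2 CPM, and 0.88 after the group means were removed. Without WD + CHP replicate 5, left out after the data were seen, these values were 0.91 and 0.59 over 14 libraries, so that the second rested largely on that library. The libraries share 3 groups, so the first value holds the difference between diets, and no p is given. For *Slc22a19* and *Slc22a26* the values were 0.98 and 0.91, and 0.985 and 0.89 without that library. WD + CHP replicate 5 was the lowest library for all 3 genes, and WD replicate 5 was the highest WD library for all 3. The pair *Slc22a2* and *Slc22a12* gave r = 0.76 and 0.72, and *Slc22a13* and *Slc22a19* 0.69 and 0.74. *Slc22a6* ran the other way from *Slc22a19*, with r = -0.71, or -0.42 after the group means were removed, and -0.74 and -0.78 without that library.

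**Figure D4:**
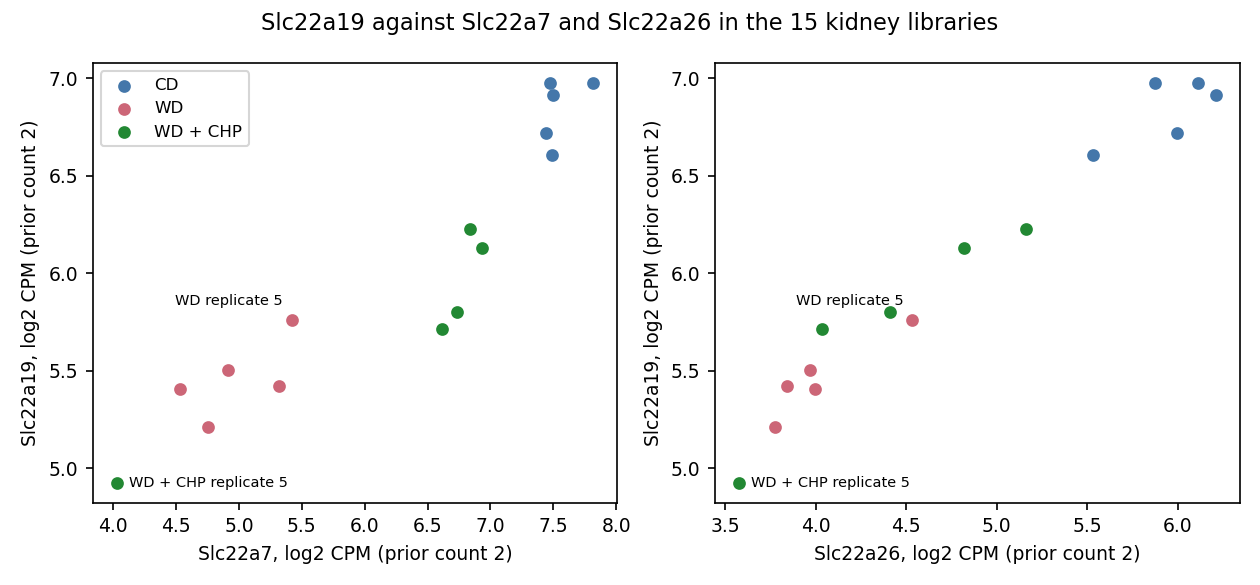
Log2 CPM (prior count 2) of *Slc22a19* against *Slc22a7* (left) and *Slc22a26* (right), 1 point per kidney library, coloured by group. Points follow 1 rising band (r = 0.93 and 0.98 over 15 libraries), with WD + CHP replicate 5 at its lower end.

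Of 9565 other genes with a mean log2 CPM of at least 3, those most like *Slc22a7* over the 15 libraries were *Cpe* (r = 0.97), *Asah1* (0.95) and *Myo5a* (0.95). Those most like *Slc22a19* were *Slc22a26* (0.98), *Asah1* (0.95) and *Ceacam2* (0.94). *Asah1*, which encodes acid ceramidase, was thus on both lists. Without WD + CHP replicate 5 and with the group means removed, r with *Slc22a7* fell from 0.91 to 0.56 for *Cpe*, from 0.85 to 0.51 for *Asah1* and from 0.91 to 0.49 for *Myo5a*, and r of *Slc22a19* with *Asah1* fell from 0.84 to 0.55. The 3 genes most like *Slc22a6* included *Pth1r* (0.93) and *Ush1c* (0.92), *Slc22a8* was most like *Gjb1* (0.90, and 0.97 after the group means were removed), and *Slc22a13* was most like *Mettl7a2* (0.93). *Slc22a2* was closest to *Mpp6* (0.93), *Slc22a5* to *Epc2* (0.90) and *Slc22a4* to *Il15* (0.85), and the 3 genes most like *Slc22a12* included *Hoxa7* (0.86). For *Slc22a6* and *Slc22a8*, which lie next to each other, the lists of 3 had no gene in common.

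Genes that work with these carriers were described from lists. Apical efflux and secretion partners of the anion and cation carriers had 0 of 10 genes called in WD vs. CD (edgeR), beside 9.65% of all genes, with 1 at an unadjusted p under 0.05, 0 in DESeq2 and 0 in limma-voom. Of all 17120 genes tested, 4263 had an unadjusted p under 0.05 in that comparison. The most abundant of them, *Slc47a1*, which encodes the cation exporter MATE1, gave a log2 fold change of 0.05 (SE 0.05, adjusted p = 0.57). Urate transporters outside the family also had 0 of 6 called, with 2 at an unadjusted p under 0.05, 0 in DESeq2 and 0 in limma-voom. Of the 2 sodium-dicarboxylate cotransporters, *Slc13a3*, which supplies the dicarboxylate for OAT1 and OAT3 exchange, rose by 0.43 (SE 0.08, adjusted p = 0.0023), from 907 to 1089 CPM in CD to 1154 to 1572 CPM in WD, with no overlap.

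Of 4 PDZ scaffold genes, whose proteins hold transporters at the apical membrane, *Slc9a3r2* rose by 0.39 (SE 0.07, adjusted p = 0.0021). Of 6 proximal tubule transcription factor genes, 0 rose and 1 fell, and *Hnf4a*, the most abundant of them, gave 0.00 (SE 0.06, adjusted p = 0.999). Of 8 genes of carnitine synthesis and use, which bear on the substrate of OCTN2, *Cpt1a* fell by 0.21 (SE 0.04, adjusted p = 0.0048). Of 6 genes known for higher levels in male kidney, *Kap* fell by 0.28 (SE 0.08, adjusted p = 0.036), but its adjusted p lay between 0.038 and 0.088 over the 10 fits without 1 library and was above 0.05 when replicate 2 or 3 of CD or replicate 1, 2 or 5 of WD was dropped. On this list limma-voom called 2 genes and 2 of the 6 had a log2 fold change above 0, with *Cyp4a12a* at 1.26 (SE 0.43, adjusted p = 0.076). In WD + CHP vs. WD, 0 genes of these 7 lists were called by edgeR, and DESeq2 called 1 (*Kap*, log2 fold change 0.27, adjusted p = 0.043). In edgeR, 4 of their genes had an unadjusted p under 0.05, beside 1958 of all 17120 genes, and limma-voom called 0. DESeq2 called 168 of all genes.

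Markers of the tubule segments were counted in WD vs. CD, in which edgeR called 9.65% of all genes. Of the 17120 genes tested, 4263 had an unadjusted p under 0.05 and DESeq2 called 2016. The segments were not tested against each other. None of 5 thick ascending limb markers and none of 8 collecting duct markers were called by edgeR (2 and 3 at an unadjusted p under 0.05, 0 in DESeq2 and 0 in limma-voom), and 1 of 4 markers of the S1 and S2 segments rose. Of 4 markers of the distal convoluted tubule, 4 rose (edgeR, median log2 fold change 0.31), and their sum was 1476 to 1634 CPM in CD, 1812 to 1933 CPM in WD and 1656 to 2019 CPM in WD + CHP, so that CD and WD did not overlap. Of 5 markers of the S3 segment, in which OAT5 lies, 0 rose and 2 fell in WD vs. CD (edgeR, with 4 at an unadjusted p under 0.05, 3 called by DESeq2 and a median log2 fold change of -0.23), namely *Cyp7b1* by 0.68 (SE 0.18, adjusted p = 0.026) and *Slc27a2* by 0.23 (SE 0.05, adjusted p = 0.0062). The summed level of these 5 was 5965 to 7286 CPM in CD, 5769 to 6057 CPM in WD and 5647 to 6634 CPM in WD + CHP, so that CD and WD overlapped, with no marker at 0 in every library. All 5 had log2 fold changes below 0 in WD vs. CD and above 0 in WD + CHP vs. WD, where 0 were called by edgeR, DESeq2 or limma-voom, 0 had an unadjusted p under 0.05 and the median was 0.08. Both comparisons use the same WD libraries, which by itself favours opposite signs, so nothing is read from the reversal. *Cyp7b1* was lowest in WD + CHP replicate 5, at 80.1 CPM against 135.9 to 182.4 CPM in the other 4 libraries of that group, and *Kap* stood there at 16932 CPM against 19688 to 22844 CPM. Of 15 proximal tubule markers, 4 rose and 3 fell in WD vs. CD (edgeR, 11 at an unadjusted p under 0.05, 9 called by DESeq2 and 7 by limma-voom). Their sum was 20471 to 22079 CPM in CD, 22110.5 to 22627 CPM in WD and 21434 to 24354 CPM in WD + CHP. CD and WD did not overlap, and WD + CHP overlapped both. Of 4 hepatocyte markers, 2 rose (edgeR), *Ttr* by 0.85 (SE 0.19, adjusted p = 0.0095) and *Serpina1a* by 0.87 (SE 0.23, adjusted p = 0.023). *Alb* and *Apoa1* were not called (edgeR, adjusted p = 0.18 and 0.22). The sum of the 4 was 94.3 to 225.3 CPM in CD, 186.2 to 763.5 CPM in WD and 200.5 to 261.7 CPM in WD + CHP. The highest WD sum was that of WD replicate 5, in which *Alb* alone was at 424.3 CPM. The part of these markers in the *Slc22a7* and *Slc22a19* differences was not tested, and in bulk tissue fewer cells of a type cannot be told apart from less RNA per cell.

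In gastrocnemius, *Slc22a4* and *Slc22a5* passed the filter and were tested, with 1 of the 2 called in WD vs. CD and 0 in WD + CHP vs. WD (edgeR; 0 at an unadjusted p under 0.05, 0 in DESeq2 and 0 in limma-voom), beside 8.63% of 15419 genes called in WD vs. CD and 0.409% in WD + CHP vs. WD. *Slc22a4* stood at 1.82, 2.06, 1.81, 1.85 and 1.88 CPM in CD, at 3.53, 3.39, 3.86, 2.23 and 3.08 CPM in WD and at 2.77, 3.79, 3.74, 2.65 and 3.36 CPM in WD + CHP. Every WD library was above every CD library, and WD and WD + CHP overlapped. It rose in WD vs. CD by 0.77 on the log2 scale (SE 0.14, adjusted p = 0.0024, edgeR), from a mean of 1.89 ± 0.103 to 3.22 ± 0.616 CPM (SD, n = 5), and gave 0.02 (SE 0.13, adjusted p = 0.97) in WD + CHP vs. WD. Raw counts of this gene were between 91 and 211. The kidney difference of *Slc22a4* in WD vs. CD was 0.10 (SE 0.06), and the 2 tissues were not tested against each other, since their tables were made separately.

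*Slc22a5* ranged from 11.6 to 13.6 CPM in CD, from 12.6 to 14.8 CPM in WD and from 12.4 to 15.04 CPM in WD + CHP in gastrocnemius. Its groups overlapped, with log2 fold changes of 0.12 (SE 0.06, adjusted p = 0.28) and 0.00 (SE 0.06, adjusted p = 0.996). Per length, *Slc22a5* was at 4.11 and *Slc22a4* at 0.739 CPM per kb in CD muscle, so that the carnitine carrier stood above the ergothioneine carrier, as it did in kidney. Among the other SLC22 genes, *Slc22a3* rose in WD vs. CD in muscle also, by 0.99 (SE 0.17, adjusted p = 0.0018), and its values of 0.590 to 0.954 CPM in CD and 1.24 to 1.97 CPM in WD did not overlap. In WD + CHP vs. WD it gave -0.41 (SE 0.16, adjusted p = 0.31).

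Genes that handle carnitine, the substrate of OCTN2, were also measured in muscle. Of 7 tested genes of carnitine synthesis and use, *Slc25a20*, the mitochondrial carnitine-acylcarnitine carrier, rose by 0.71 (SE 0.07, adjusted p = 3.2e-05) and *Cpt2* by 0.48 (SE 0.06, adjusted p = 0.00012) in WD vs. CD. Adipocyte markers moved with the groups in muscle: their sum over 4 genes was 17.9 to 27.7 CPM in CD, 59.3 to 78.7 CPM in WD and 17.9 to 36.2 CPM in WD + CHP, with 4 of 4 higher in WD vs. CD and 4 of 4 lower in WD + CHP vs. WD. Of 6 fast muscle fibre markers, 0 rose and 2 fell in WD vs. CD (edgeR), and their sum was 174916 to 211122 CPM in CD, 151245 to 177353 CPM in WD and 162596 to 185517 CPM in WD + CHP. Immune cell markers were above 0 for 4 of 4 in WD vs. CD (median log2 fold change 0.33). In WD + CHP vs. WD, 4 of 4 were below 0 (median -0.28). EdgeR called 0 of them in either comparison, and DESeq2 called 1 and 0. At an unadjusted p under 0.05 were 2 and 1 of them, beside 3662 and 1929 of 15419 genes. The sum of 4 hepatocyte markers was 0.429 to 55.4 CPM in CD, 0.517 to 56.3 CPM in WD and 0.343 to 2.14 CPM in WD + CHP, with 0 of the 3 tested called in WD + CHP vs. WD (edgeR, 3 at an unadjusted p under 0.05, 0 in DESeq2 and 0 in limma-voom). *Slc22a4* was at 3.26 ± 0.534 CPM in WD + CHP (SD, n = 5), beside 3.22 ± 0.616 CPM in WD. The part of these markers in the *Slc22a3* and *Slc22a4* differences was not tested.

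The other 7 members were at the limit of detection in muscle. *Slc22a12* had 2 to 11 counts per library, *Slc22a2* at most 7, *Slc22a7* at most 4, *Slc22a13* at most 2 and *Slc22a8* at most 1. *Slc22a6* and *Slc22a19* had 0 counts in all 15 libraries, which allows a level of up to 0.0563 to 0.0596 CPM per library (3 counts, counting error only).

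**Figure D5:**
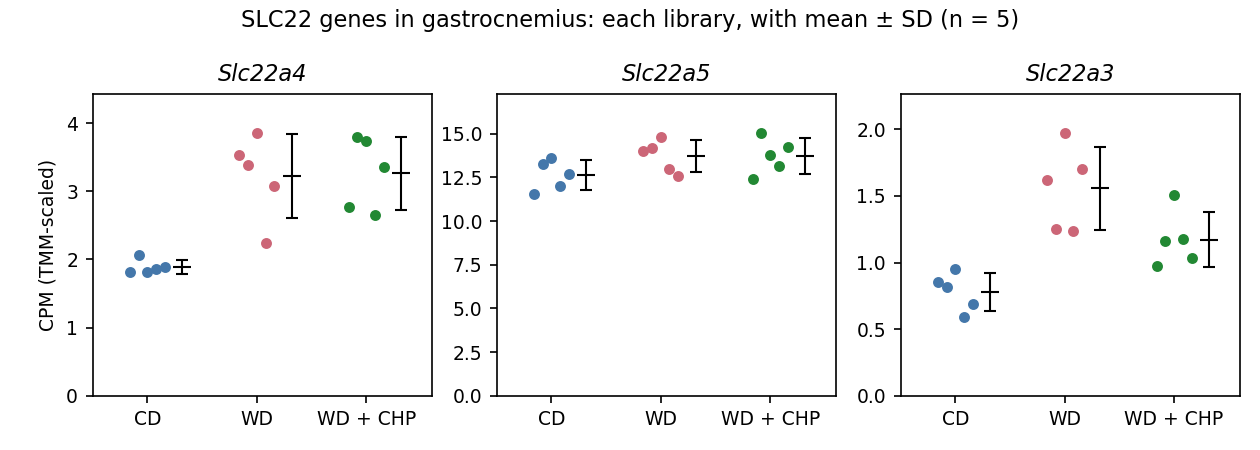
Gastrocnemius CPM (TMM-scaled, linear axes from 0) of *Slc22a4*, *Slc22a5* and *Slc22a3* in each library of CD, WD and WD + CHP (coloured points), with mean ± SD (n = 5) in black. The WD points of *Slc22a4* and *Slc22a3* lie above all CD points, and those of *Slc22a5* overlap with CD.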

How the data were processed

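Raw read counts per gene, as whole numbers and not normalised, were deposited by the authors in 1 table per tissue. PolyA RNA was sequenced on a BGISEQ-500, reads were cleaned with SOAPnuke, and the submitters' processing notes name STAR 2.7.3a and GRCm38. The counting tool, annotation and strand setting are not given in the sources used here. Columns were matched to libraries by label, and 0 were left over.

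Within a tissue, low genes were removed with filterByExpr (minimum count 10), and the rest was scaled by TMM and fitted over the 3 groups with edgeR 4.0.16 (R 4.3.3), the main test, by the two-sided quasi-likelihood F test, and p-values were adjusted by Benjamini-Hochberg across every gene tested, with 0.05 as the threshold. The study's methods used limma, which is given here as an alternative. The SE is the absolute log2 fold change over the square root of F. CPM use TMM-scaled library sizes, and log2 CPM a prior count of 2. The models were tested on simulated data. Libraries of 1 group differed by a chi-square of at least 9.06 per gene, so none was a copy.

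The members and gene lists were chosen with earlier results of these data known. The genes named are all members, the other SLC22 genes that were kept, list genes with an adjusted p under 0.05 in kidney with the most abundant gene of a list, and for each member the 3 genes (mean log2 CPM of at least 3) with the highest Pearson r. Alternatives were DESeq2 1.42.0, limma-voom (limma 3.58.1), other scalings and filters, a replicate block, offsets for length and GC content, only the 2 groups compared, and each library left out. A few genes that this rule names are not reported here.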

Additional observations from a re-analysis of the deposited data

Results flagged for a closer look

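Within each group of 5 libraries, a library was singled out where its gap to the nearest other library exceeded 0.71 of the group's range (Dixon's 95% value). Of 93 groups searched over the SLC22 genes that passed the filter in kidney or gastrocnemius, 8 were singled out, and chance gives about 5% of groups. *Slc22a7* in kidney had 2 of them, CD replicate 3 at 225.8 CPM (others 173.6 to 180.3) and WD + CHP replicate 5 at 16.24 CPM (others 97.7 to 122.4). *Slc22a17* stood at 40.05 CPM in the same WD + CHP replicate 5 (others 33.7 to 35.3). *Slc22a26* stood at 23.08 CPM in WD replicate 5 (others 13.7 to 15.9), the library with the high albumin value. *Slc22a22* stood at 140.4 CPM in CD replicate 2 (others 117.5 to 124.0) and *Slc22a23* at 97.33 CPM in CD replicate 1 (others 72.1 to 78.3). In gastrocnemius, *Slc22a4* stood at 2.062 CPM in CD replicate 2 (others 1.81 to 1.88) and *Slc22a15* at 1.767 CPM in CD replicate 5 (others 0.927 to 1.14). In that CD replicate 5, *Slc22a14* and *Slc22a16*, which did not pass the filter in muscle and were not searched, had 76 and 84 counts, against at most 2 in each of the other 14 muscle libraries.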

How the results depend on the processing

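*Slc22a7* and *Slc22a19* were called in kidney WD vs. CD in all 20 alternative fits, and 2 to 3 members were called when each library was left out, the added one being *Slc22a6* without CD replicate 2. In kidney WD + CHP vs. WD, DESeq2 and the fit with no filter each called 1 member (*Slc22a7*), and leaving out each library gave 0 to 1, with 1 (*Slc22a7*) without WD + CHP replicate 5. These calls are a description, since kidney values chose the members. Over all genes that comparison called 18 in edgeR, 168 in DESeq2, 37 with no filter, 70 with the replicate block, 0 with length and GC content (1771 at an unadjusted p under 0.05), 0 with only the 2 groups compared (1991 at an unadjusted p under 0.05) and 0 to 97 without 1 library, with 97 without WD replicate 2 and 0 when WD replicate 1, 4 or 5, or replicate 3 or 4 of WD + CHP, was dropped. The cause was not tested. Genes of the other lists went from 0 to 2 in DESeq2 and to 1 with the replicate block (*Slc22a29*). Gastrocnemius WD + CHP vs. WD called 63 genes, against 249 in DESeq2, 40 with no filter and 12 to 92 without 1 library. Small differences turned in sign in WD + CHP vs. WD. In kidney, *Slc22a6* (0.03) gave -0.0072 with the total count and -0.0047 to 0.0647 without 1 library, and *Slc22a13* (-0.05) gave -0.165 to 0.0292 without 1 library. In muscle, *Slc22a4* (0.02) gave -0.0197 with the total count and -0.0862 to 0.0943 without 1 library, and *Slc22a5* (0.00087) gave -0.0408 with the total count, -0.00062 with at least 10 counts in every library, -0.00022 with the replicate block and -0.0339 to 0.0357 without 1 library. Leaving out 1 library gave 1142 to 1744 genes in kidney WD vs. CD, 965 to 1421 in gastrocnemius WD vs. CD, 7 to 9 genes of the other lists in kidney WD vs. CD, and the same member, *Slc22a4*, in muscle. Of the 27 genes most like the members, 14 were kept after the group means were removed and 8 with Spearman's rho. Same-numbered libraries did not deviate together (lowest and highest r over 15 pairs, -0.091 and 0.14 in kidney, -0.13 and 0.15 in gastrocnemius), and 4 and 3 of 15 libraries correlated best with their own number. Genes at a few counts, such as *Slc22a27*, carry wide errors at this depth.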
